A study of Homo sapiens with 4 samples.

Results

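Glycolysis and hypoxia genes were followed in Jurkat cells, a human T-cell acute lymphoblastic leukemia line, after transfection with LEF1 siRNA. The set held 41 genes, chosen by symbol for their roles in glucose breakdown and the response to low oxygen, and 38 of them were measured here, of 19775 genes read in all. SLC16A1, SLC16A3 and CA9 had no probe set listed under a single gene symbol and were not analysed here. Each gene was read by the single-symbol probe set with the highest mean signal over the 4 arrays, a probe set being several short probes that together read a transcript's 3' end. The siLEF1 group (2 arrays) received 100 nM of a pooled siRNA against LEF1, a transcription factor of the Wnt pathway, and the siNT group (2 arrays) received 100 nM of a pooled non-targeting siRNA. Both groups were transfected with the same reagent and grown for 24 h in the same medium, and all cells came from this single, p53-mutant line. The labels call replicates 1 and 2 of each group biological, without saying what a replicate was, so p-values measure the spread between these arrays.

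Glycolysis splits glucose into pyruvate in the cytosol, with transporters bringing glucose in, an upper series of enzymes that spends ATP and a lower series that regains it. Lactate dehydrogenases then convert pyruvate to lactate, while pyruvate dehydrogenase kinases inhibit pyruvate dehydrogenase, the enzyme that uses pyruvate inside the mitochondria. When oxygen is low, the factor HIF1A escapes the prolyl hydroxylases of the EGLN family, pairs with ARNT and binds short DNA elements near many of these genes. Leukemic T cells are known for high glycolysis also when oxygen is present. No oxygen level, lactate or glucose uptake is given in the labels, and the arrays measure RNA only.

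The target of the siRNA was examined first. The brightest LEF1 probe set read 11.24 and 11.56 on the log2 scale in siLEF1 and 12.30 and 11.92 in siNT. The groups did not overlap, and the log2 fold change, siLEF1 minus siNT throughout, was -0.71 (SE 0.20, limma adjusted p = 0.191). The other LEF1 probe sets gave -0.93 (adjusted p = 0.141) and, for the dimmest, -0.19 (adjusted p = 0.673). LEF1 itself therefore did not pass the test that the members below were put to.

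The 4 arrays had medians of 4.84 to 4.85 on the log2 scale. Over all probe sets the siLEF1 arrays correlated at 0.995 and the siNT arrays at 0.990, and siNT replicate 2 stood farther from the siLEF1 arrays (0.979 to 0.980) than replicate 1 did (0.988 to 0.991). Of 15 T-cell markers measured, 12 lay above the array median in every array, among them CD3D at 12.44 to 12.74, while RAG1 lay at 3.34 to 3.68. The summed linear signal of these markers was 17748 to 18323 in siLEF1 and 13081 to 17314 in siNT. The summed signals of B-cell, myeloid, erythroid, epithelial and stromal markers were at most 451 in any array. The sums of erythroid (116 to 124 against 154 to 209), epithelial (205 to 209 against 266 to 282) and myeloid markers (105 to 123 against 128 to 144) were lower in both siLEF1 arrays. The T-cell marker CD1E was called higher (log2 fold change 1.58, limma adjusted p = 0.044). It was dim, at 5.53 and 5.79 in siLEF1 and 4.04 and 4.12 in siNT, the latter under the array medians. RNA quality also moved with the groups. For the ACTB control probes, the 5' minus 3' log2 signal was -1.08 and -1.55 in siLEF1 and -1.80 and -1.95 in siNT. The part of these differences in the results below was not tested. In bulk RNA, fewer cells expressing a gene and less RNA per cell cannot be told apart.

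None of the 38 members passed the thresholds of an adjusted p below 0.05 together with a change of more than 2-fold. The values differed in part by role, in a set chosen with earlier results of these data known. Hypoxia-induced genes had values on both sides of 0. The glycolytic enzymes were mostly higher in value in siLEF1 and by small amounts, whereas ADM, ANKRD37 and KDM3A among the hypoxia-induced genes, the glucose transporter SLC2A3 and the muscle phosphofructokinase PFKM were lower by larger amounts. Over all genes, 0.263% were called lower and 0.0657% higher by limma. At an unadjusted p below 0.05, 6 members were lower and 6 higher, beside 11.5% lower and 7% higher of all genes. An F test without moderation called 0 probe sets on the whole array, so its 0 members say nothing about this set. Counting arrays alone, both siLEF1 values lay below both siNT values in 11 members (28.9%), beside 26.4% of all genes, and above them in 18 members (47.4%), beside 28.1% of all genes. The other 9 members overlapped between the groups. The smallest adjusted p among members was 0.0825, and their median log2 fold change was 0.19 (24 of 38 above 0), against 0.02 over all genes.

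**Figure D1:**
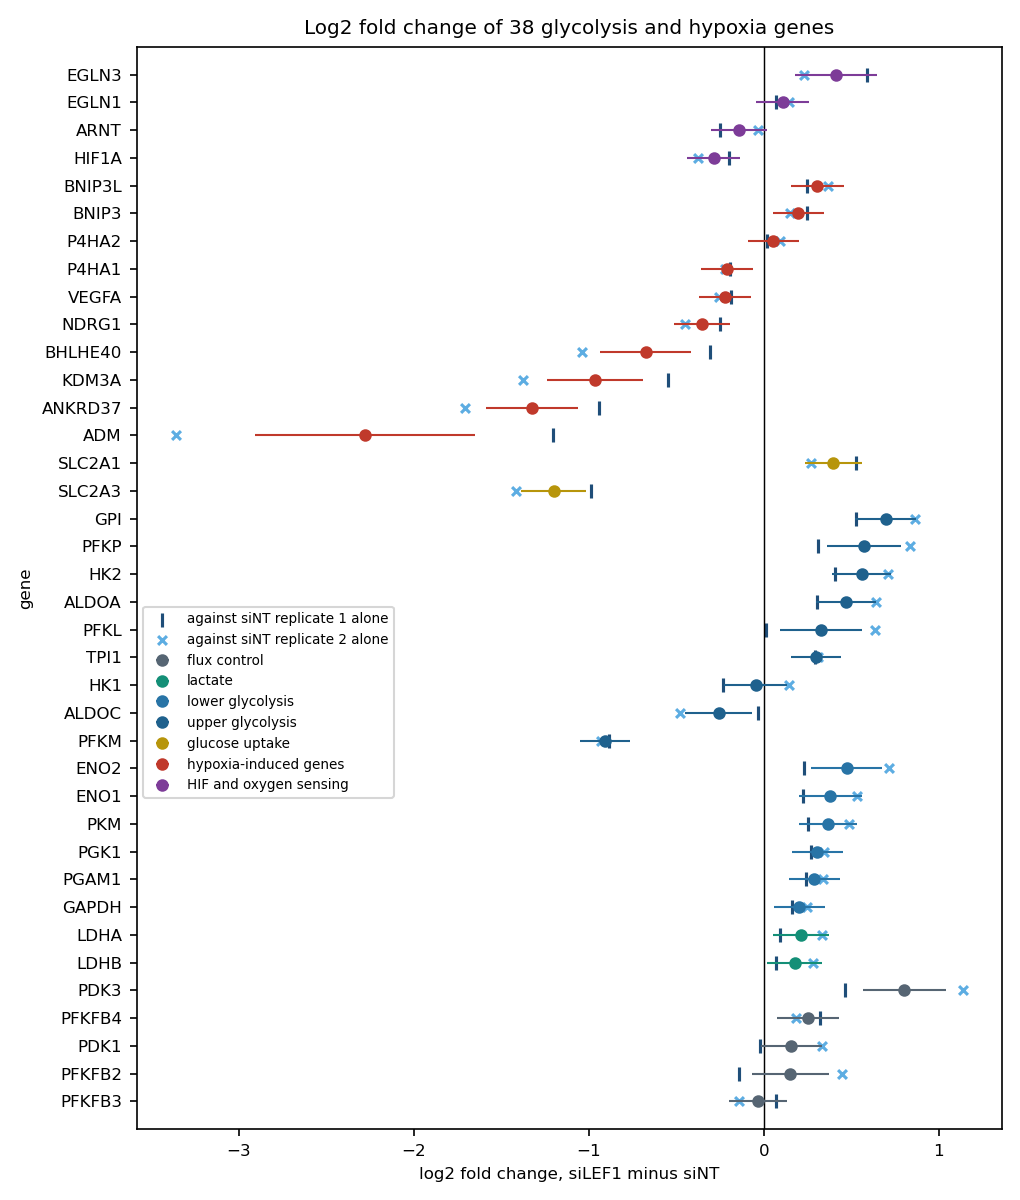
Log2 fold change (siLEF1 minus siNT, x axis) of the 38 measured members, grouped by role on the y axis, with bars of 1 SE from limma; vertical dashes give the value against siNT replicate 1 alone and crosses against siNT replicate 2 alone. The 6 lower glycolysis enzymes all lie right of 0, while ADM at -2.28, ANKRD37 at -1.32 and SLC2A3 at -1.20 lie farthest left, with ADM also the widest apart between the siNT replicates.

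Of the 4 genes of HIF and its oxygen sensing, 3 overlapped between the groups, beside 8999 of all 19775 genes. HIF1A, the oxygen-regulated subunit, read 11.17 and 11.12 in siLEF1 and 11.34 and 11.52 in siNT, a log2 fold change of -0.29 (SE 0.15, adjusted p = 0.432) with groups that did not overlap. Its partner ARNT gave -0.14 (adjusted p = 0.727) and overlapped. EGLN1, the main hydroxylase that marks HIF1A for destruction, gave 0.11 (adjusted p = 0.79), and its 2 other probe sets of signal 6 or more read -0.28 and -0.34. EGLN3, an inducible hydroxylase, was dim, with signals of 4.13 to 4.99, and gave 0.41 (SE 0.23, adjusted p = 0.46) with groups that overlapped.

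Of the 10 hypoxia-induced genes measured, 7 lay lower in both siLEF1 arrays, 2 lay higher and P4HA2 overlapped. The shares of all genes were 26.4% lower and 28.1% higher. The median log2 fold change of the 10 was -0.29. ADM, which encodes the vasodilator peptide adrenomedullin, read 6.11 and 6.39 in siLEF1 and 7.45 and 9.61 in siNT. All siLEF1 values were below both siNT values, but the siNT replicates were 2.16 log2 units apart. The log2 fold change was -2.28 (SE 0.63, 4.86-fold lower, adjusted p = 0.183), and it was -1.20 against siNT replicate 1 alone and -3.36 against siNT replicate 2 alone. ANKRD37, a small ankyrin-repeat protein and a HIF1A target, read 6.07 and 6.28 in siLEF1 and 7.12 and 7.88 in siNT. This was a log2 fold change of -1.32 (SE 0.26, 2.5-fold lower, adjusted p = 0.112), with -0.94 and -1.70 against siNT replicates 1 and 2 taken alone.

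KDM3A, a histone H3 lysine demethylase, read 9.30 and 9.25 in siLEF1 and 9.82 and 10.65 in siNT. Its log2 fold change was -0.96 (SE 0.27, adjusted p = 0.192), and it was -0.55 and -1.38 against siNT replicates 1 and 2 alone. BHLHE40, a transcriptional repressor, read 7.24 and 7.49 in siLEF1 and 7.67 and 8.40 in siNT, with a log2 fold change of -0.67 (SE 0.26, adjusted p = 0.294). Against siNT replicates 1 and 2 alone it was -0.31 and -1.04. In each of these 4 genes siNT replicate 2 lay highest. The 3 remaining genes below the siNT range had smaller values. They were NDRG1, a stress-responsive protein (-0.35), the growth factor VEGFA (-0.22) and P4HA1, a collagen prolyl hydroxylase subunit (-0.21). The mitophagy receptors BNIP3 (0.20, SE 0.15, limma adjusted p = 0.578) and BNIP3L (0.31, SE 0.15, limma adjusted p = 0.401) lay higher in both siLEF1 arrays. Centred on the housekeeping gene PPIA, 9 of the 10 hypoxia-induced genes were below 0. Whether these genes differ in direction was not tested.

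**Figure D2:**
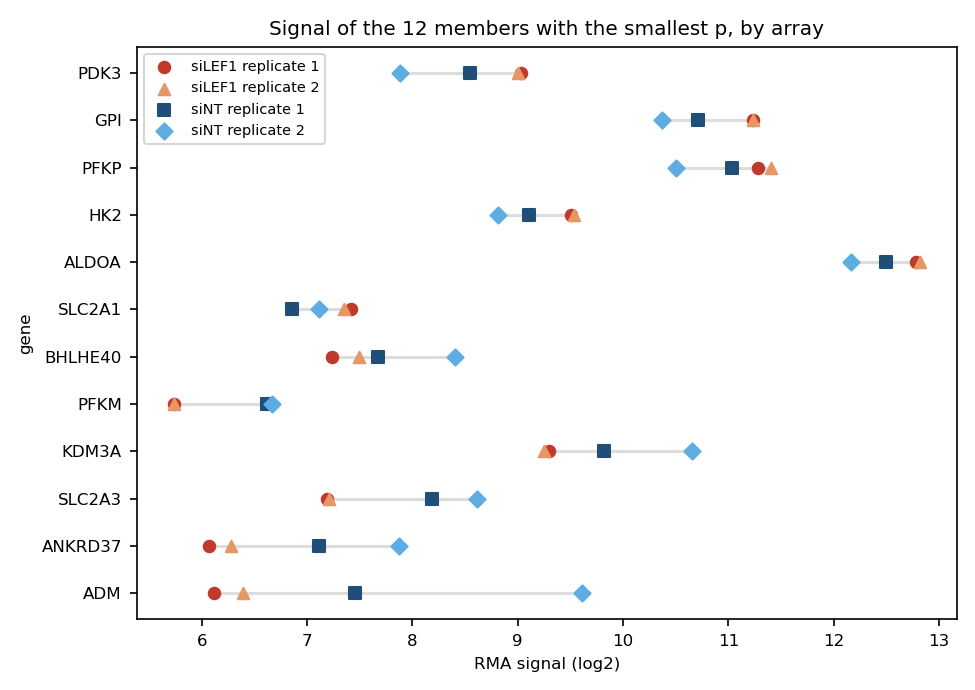
Log2 RMA signal (x axis) in each array for the 12 members with the smallest p (y axis); circles and triangles are siLEF1 replicates 1 and 2, squares and diamonds siNT replicates 1 and 2. ADM spans 6.11 to 9.61, and its siNT arrays lie at 7.45 and 9.61, the widest replicate gap plotted.

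Promoter sequences are shown for 4 lower genes of the hypoxia-induced group and, for contrast, for 2 higher glycolytic genes, since HIF binds a short core near such genes. The core searched was ACGTG or GCGTG on both strands, and an E-box, CACGTG, therefore counts as 2 overlapping matches. Capitals mark the matches in each window, which runs from 250 bases before to 50 bases after the transcription start (RefSeq, GRCh38.p14, plus strand for all 6, written 5′ to 3′). ANKRD37 lies at chr4:185396591-185396890, ADM at chr11:10304823-10305122, KDM3A at chr2:86441121-86441420 and BHLHE40 at chr3:4979187-4979486. HK2 lies at chr2:74834920-74835219 and GPI at chr19:34364742-34365041.
ANKRD37: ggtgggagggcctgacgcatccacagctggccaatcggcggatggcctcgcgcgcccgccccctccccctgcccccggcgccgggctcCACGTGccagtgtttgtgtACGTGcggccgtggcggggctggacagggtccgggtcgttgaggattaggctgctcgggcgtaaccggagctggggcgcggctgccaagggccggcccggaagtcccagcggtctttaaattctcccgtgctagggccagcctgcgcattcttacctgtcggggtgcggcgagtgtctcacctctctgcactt
ADM: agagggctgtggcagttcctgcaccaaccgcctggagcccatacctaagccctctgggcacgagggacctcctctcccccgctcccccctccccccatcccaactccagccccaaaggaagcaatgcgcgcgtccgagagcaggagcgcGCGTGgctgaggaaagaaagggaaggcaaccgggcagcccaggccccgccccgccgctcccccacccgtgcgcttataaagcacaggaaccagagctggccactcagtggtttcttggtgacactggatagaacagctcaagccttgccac
KDM3A: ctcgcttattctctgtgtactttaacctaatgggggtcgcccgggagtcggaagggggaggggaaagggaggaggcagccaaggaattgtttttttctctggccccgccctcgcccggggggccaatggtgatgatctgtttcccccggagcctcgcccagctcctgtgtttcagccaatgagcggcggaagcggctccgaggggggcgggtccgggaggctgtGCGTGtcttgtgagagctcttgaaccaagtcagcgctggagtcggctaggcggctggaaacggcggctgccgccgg
BHLHE40: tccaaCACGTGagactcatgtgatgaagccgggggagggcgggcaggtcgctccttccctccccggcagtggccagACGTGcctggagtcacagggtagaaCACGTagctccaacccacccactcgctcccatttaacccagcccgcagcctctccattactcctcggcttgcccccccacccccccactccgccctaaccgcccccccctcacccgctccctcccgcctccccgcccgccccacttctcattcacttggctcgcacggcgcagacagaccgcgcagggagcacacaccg
HK2: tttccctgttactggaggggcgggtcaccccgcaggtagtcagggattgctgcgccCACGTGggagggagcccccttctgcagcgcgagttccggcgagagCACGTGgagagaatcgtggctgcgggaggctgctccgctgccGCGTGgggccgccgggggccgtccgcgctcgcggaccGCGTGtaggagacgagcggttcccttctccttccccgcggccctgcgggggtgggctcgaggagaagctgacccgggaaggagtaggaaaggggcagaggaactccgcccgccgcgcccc
GPI: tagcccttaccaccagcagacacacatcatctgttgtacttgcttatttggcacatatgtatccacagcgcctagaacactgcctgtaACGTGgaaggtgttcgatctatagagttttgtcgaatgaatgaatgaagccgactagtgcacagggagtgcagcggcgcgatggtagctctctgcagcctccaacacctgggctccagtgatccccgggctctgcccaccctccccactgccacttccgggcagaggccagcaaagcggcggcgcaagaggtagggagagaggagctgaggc
The ANKRD37 window held 3 matches and that of BHLHE40 held 4, against 1 each in ADM and KDM3A. The HK2 window held 6 matches and the GPI window 1, so the core stood in windows of genes that were lower and of genes that were higher in value. HK2 and KDM3A had 2 windows each, and a window with the most matches is shown, so these counts do not rank the genes.

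The promoter table held 35 of the 41 listed genes, in 63 windows, because some genes have several starts. SLC2A3 was not in it. The core was in 42 of the 63 windows (66.7%), against 48.4% of all 35116 windows of the same length. By direction it was in 10 of 16 windows (62.5%) of members below the siNT range and in 21 of 25 (84%) of those above it. PFKM alone gave 7 of the 16 windows, and 2 of its 7 held the core, so these shares do not compare genes. A TCF/LEF motif (CTTTG followed by A or T at each of the next 2 bases, both strands) was in 2 of 63 member windows (3.17%), of PFKM and SLC16A3, against 13.8% of all windows. Windows of the same gene share sequence, these shares were not tested, and a match is a description of the letters only.

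The glucose transporters went opposite ways in value. SLC2A3 (GLUT3), a high-affinity transporter, read 7.19 and 7.21 in siLEF1 and 8.19 and 8.61 in siNT, with siLEF1 arrays that nearly coincided and lay below both siNT arrays. Its log2 fold change was -1.20 (SE 0.19, 2.3-fold lower, adjusted p = 0.0825), the smallest adjusted p of the set. Its other probe sets gave -1.32 (adjusted p = 0.0954) and -1.34 (adjusted p = 0.0692). Against siNT replicates 1 and 2 alone the value was -0.99 and -1.41. SLC2A3 passed both thresholds when p-values were adjusted over 1 probe set per gene (limma adjusted p = 0.0487) and when its probe sets were averaged (-1.29, adjusted p = 0.033), and over all alternatives its adjusted p ran from 0.0268 to 0.723. SLC2A14 is a near-identical copy of SLC2A3, so signal of the pair may not be separable. SLC2A1 (GLUT1), the widespread basal transporter, read 7.42 and 7.35 in siLEF1 and 6.86 and 7.11 in siNT, a log2 fold change of 0.40 (SE 0.16, adjusted p = 0.316). The difference between the transporters was not tested.

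In upper glycolysis, 5 of 9 enzymes lay higher in both siLEF1 arrays, 2 lay lower, and HK1 and PFKL overlapped. The shares of all genes were 28.1% higher and 26.4% lower. GPI, which converts glucose 6-phosphate to fructose 6-phosphate, read 11.23 and 11.24 in siLEF1 and 10.71 and 10.37 in siNT. This log2 fold change of 0.70 (SE 0.17, 1.62-fold higher, adjusted p = 0.158) was the highest among the enzymes. HK2, the inducible hexokinase that traps glucose in the cell, read 9.50 and 9.54 in siLEF1 and 9.11 and 8.81 in siNT, a log2 fold change of 0.56 (SE 0.17, adjusted p = 0.206). The constitutive hexokinase HK1 gave -0.04 (adjusted p = 0.938), with siLEF1 arrays inside the siNT range.

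Phosphofructokinase commits sugar to glycolysis, and its 3 subunit genes had different values. PFKM, the muscle form, read 5.73 and 5.74 in siLEF1 and 6.62 and 6.66 in siNT. Replicates were almost equal in both groups, and the log2 fold change was -0.91 (SE 0.14, 1.87-fold lower, adjusted p = 0.0829). Its adjusted p was 0.0469 over 1 probe set per gene, at the same change of under 2-fold, and ran from 0.0264 to 0.723 over all alternatives. Centred on PPIA, its log2 fold change was -1.14 and it passed both thresholds (limma adjusted p = 0.0264). PFKP, the platelet form, read 11.28 and 11.41 in siLEF1 and 11.03 and 10.50 in siNT, a log2 fold change of 0.57 (SE 0.21, adjusted p = 0.275), or 0.31 against siNT replicate 1 alone. PFKL, the liver form, overlapped between the groups at 0.33 (adjusted p = 0.566). Differences between these isoforms were not tested, and signals of different probe sets do not rank them by abundance.

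ALDOA, the aldolase that splits fructose 1,6-bisphosphate, read 12.78 and 12.82 in siLEF1 and 12.50 and 12.16 in siNT, a log2 fold change of 0.47 (SE 0.17, adjusted p = 0.275), or 0.30 against siNT replicate 1 alone. Its other probe sets gave 0.41 and 0.90. The brain aldolase ALDOC gave -0.26 (adjusted p = 0.581), below the siNT range by a small margin. TPI1, which interconverts the triose phosphates, gave 0.30 (adjusted p = 0.385).

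All 6 enzymes of lower glycolysis lay higher in both siLEF1 arrays, beside 28.1% of all genes, with log2 fold changes of 0.20 to 0.47. GAPDH, which begins this stretch, read 13.74 and 13.73 in siLEF1 and 13.57 and 13.49 in siNT, a log2 fold change of 0.20 (SE 0.15, adjusted p = 0.565). The ATP-generating kinase PGK1 gave 0.31 (adjusted p = 0.385) and the mutase PGAM1 gave 0.29 (adjusted p = 0.411). The enolases ENO1 and ENO2 gave 0.38 (adjusted p = 0.377) and 0.47 (adjusted p = 0.335), the latter 0.23 against siNT replicate 1 alone. PKM, the pyruvate kinase of most tissues, gave 0.37 (adjusted p = 0.358). The lactate dehydrogenases LDHA at 0.21 (adjusted p = 0.583) and LDHB at 0.18 (adjusted p = 0.646) also lay above the siNT range.

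Over the 17 enzymes from the hexokinases to LDHA and LDHB, the median log2 fold change was 0.31, with 14 above 0 and 13 above the siNT range. The shares of all genes were 53.5% above 0 and 28.1% above the siNT range. The siNT replicates moved along the same axis. In 15 of these 17 genes siNT replicate 2 lay below replicate 1, beside 10085 of all 19775 genes. The median over the 17 was 0.24 log2 units below. Against siNT replicate 1 alone the enzymes' median log2 fold change was 0.23 with 14 of 17 above 0. In the hypoxia-induced genes siNT replicate 2 was higher by a median of 0.15, and the median against siNT replicate 1 alone was -0.22 with 7 of 10 below 0. Over all members the siNT replicates differed by a median of 0.25 in absolute value and the siLEF1 replicates by 0.08. The same medians over all genes were 0.21 and 0.12. With siNT replicate 1 left out, limma called ADM (-3.36), ANKRD37 (-1.70), SLC2A3 (-1.41) and KDM3A (-1.38) lower and PDK3 (1.14) higher. In that fit 2.89% of all genes were called lower and 1.07% higher, and the lone siNT array was assumed to vary like the siLEF1 arrays.

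**Figure D3:**
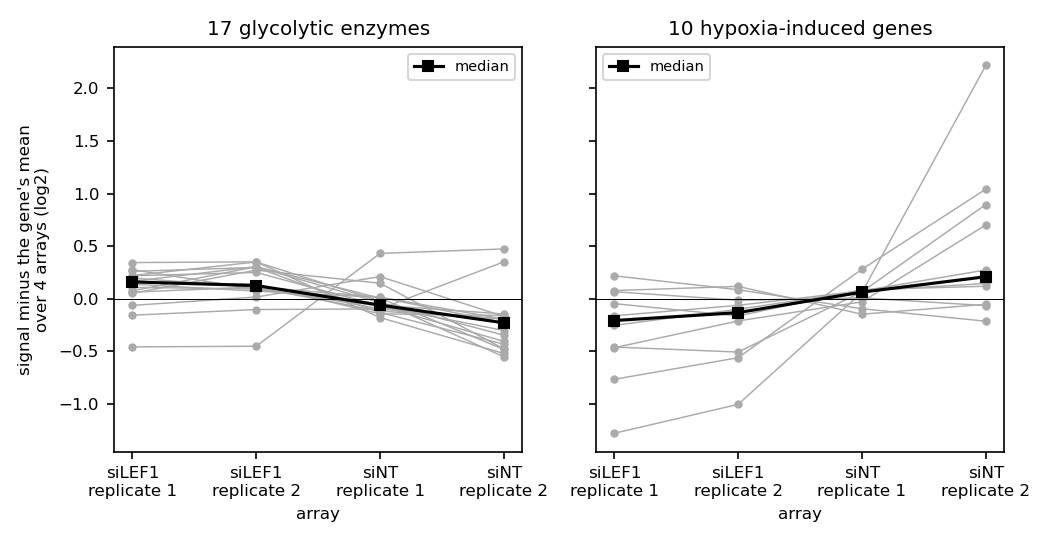
Log2 signal of each array minus the gene's mean over the 4 arrays (y axis) for the 17 glycolytic enzymes and the 10 hypoxia-induced genes in separate panels, with the arrays on the x axis; thin lines join the values of a gene and black squares are medians. In the enzymes siNT replicate 2 lies below replicate 1 in 15 of 17 genes, and in the hypoxia-induced genes it lies mostly above.

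Many glycolytic enzymes are among the brightest probe sets on the array. The 8 members with a mean signal of 12 or more all lay above the siNT range, with a median log2 fold change of 0.29. Of the 278 genes that bright, 123 lay above the siNT range and 67 below it, and their median was 0.06. GAPDH is also a control on the array, where its 3' probes read 13.61 and 13.56 in siLEF1 and 13.51 and 13.43 in siNT. Its 5' probes read 13.27 and 13.24 in siLEF1 and 13.11 and 12.78 in siNT, so siNT replicate 2 had the lowest 5' signal.

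Of the 5 kinases that set flux, 2 lay above the siNT range, beside 28.1% of all genes, and 3 overlapped. PDK3, which phosphorylates and inhibits pyruvate dehydrogenase, read 9.03 and 9.01 in siLEF1 and 8.55 and 7.88 in siNT, a log2 fold change of 0.80 (SE 0.24, 1.74-fold higher, adjusted p = 0.203), the highest of the 38 members. The value was 0.47 against siNT replicate 1 alone, and the other PDK3 probe sets of signal 6 or more gave -0.10 and 0.13. PDK1, a HIF1A target, gave 0.16 (adjusted p = 0.726) by its brightest probe set and -0.36 by the other of signal 6 or more. PFKFB2, PFKFB3 and PFKFB4 make the activator fructose 2,6-bisphosphate, and they gave 0.15, -0.03 and 0.25. Of these only PFKFB4 lay above the siNT range, and its adjusted p was 0.556.

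A total of 27 members had several probe sets, and 16 had at least 2 with a mean signal of 6 or more. In 12 of these 16 all such probe sets had values of 1 sign. PDK3, PDK1, EGLN1 and ARNT had both signs. All 4 VEGFA probe sets were below 0, the others at -0.08, -0.56 and -0.60. The bright probe sets of PGK1 ranged from 0.31 to 0.71, all above 0.

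**Figure D4:**
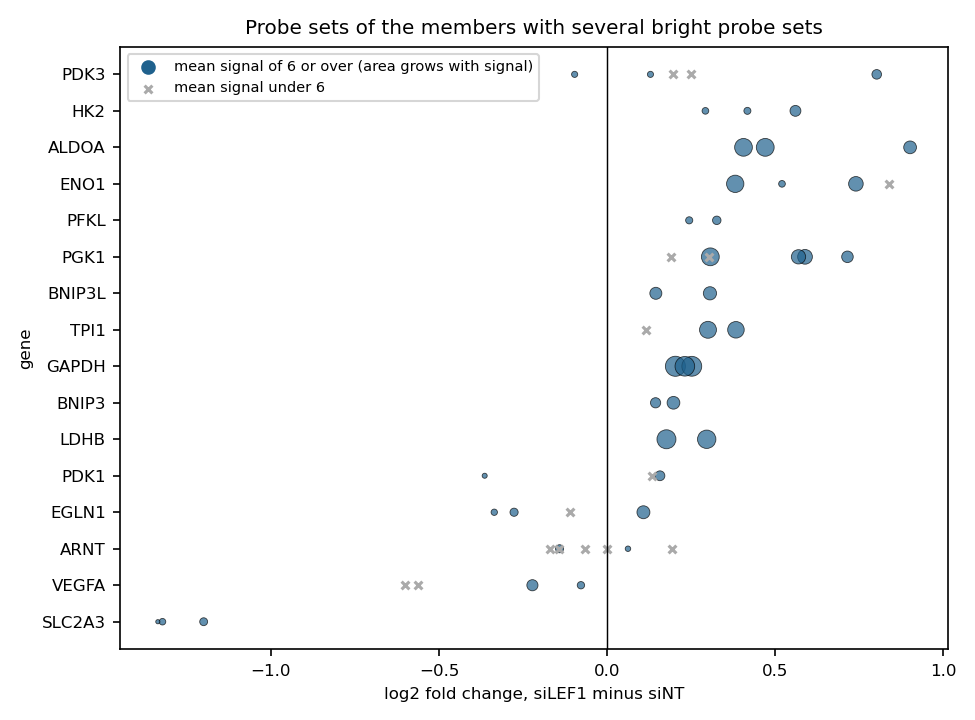
Log2 fold change (siLEF1 minus siNT, x axis) of the probe sets of the 16 members (y axis) with at least 2 of mean signal 6 or more. Circles are probe sets of mean signal 6 or more, with area growing with signal, and grey crosses are dimmer ones. In 12 members all circles lie on 1 side of 0, and PDK3, PDK1, EGLN1 and ARNT have circles on both sides.

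Small values depended on the scale of the arrays. RMA equalizes the distributions of the arrays, and centring on TBP, the reference gene of the study's qRT-PCR, added 0.30 to every log2 fold change, whereas centring on the housekeeping gene PPIA subtracted 0.23. The enzymes then had medians of 0.61 and 0.08, with 16 and 11 of 17 above 0. The hypoxia-induced genes had medians of 0.01 on TBP, with 5 of 10 above 0, and -0.52 on PPIA, with 9 of 10 below 0. Of 11 housekeeping genes measured, log2 fold changes ran from -0.73 to 0.68, and centring on their median added 0.13. The directions of the 12 members with the smallest p held under every scaling tried. This was bound to happen, because the value nearest 0 among them, 0.40 for SLC2A1, exceeds the largest shift of 0.30.

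**Figure D5:**
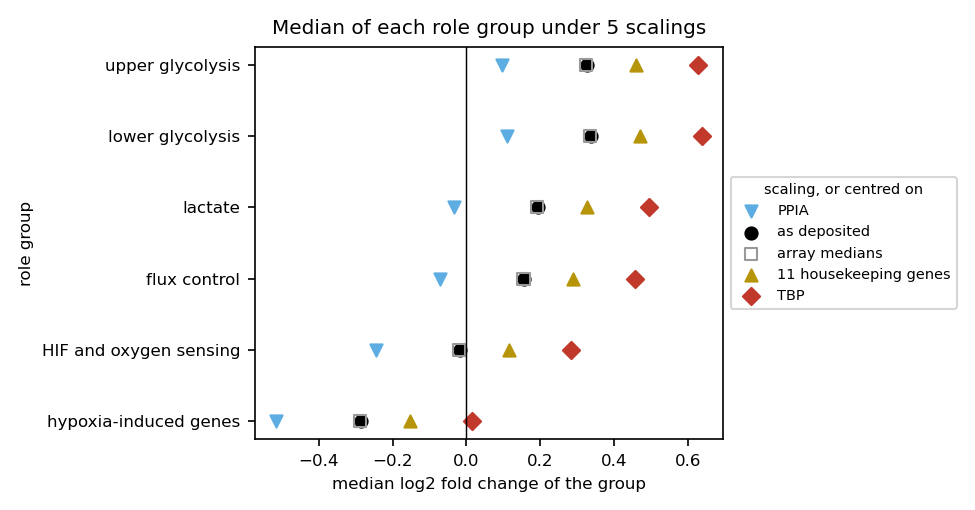
Median log2 fold change (siLEF1 minus siNT) of 6 role groups under 5 scalings of the arrays: RMA as deposited, and centring on array medians, housekeeping genes, TBP or PPIA. The hypoxia-induced genes range from -0.52 to 0.01 and the glycolytic groups stay above 0 except for lactate and flux control under PPIA.

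Genes of neighbouring pathways were read in the same fit, and 0 genes in any of the 6 lists passed limma's adjusted p. Over all genes, 28.1% lay above and 26.4% below the siNT range, and 7% were higher and 11.5% lower at an unadjusted p below 0.05, which are the shares beside which the counts of each list stand. Of 10 pentose phosphate genes measured, 9 lay above the siNT range and 1 below, with a median of 0.40, and 5 were higher at an unadjusted p below 0.05. Among them were PRPS2, which makes the ribose precursor of nucleotides (0.87, adjusted p = 0.137), and the transketolase-like gene TKTL1 (0.91, adjusted p = 0.145). Without siNT replicate 2 their median was 0.25. In 21 other glycolytic isoforms and hexose genes the median was 0.17, with 11 above and 2 below the siNT range, and 2 were higher at an unadjusted p below 0.05. HKDC1, a hexokinase-like gene, read 7.82 and 7.97 in siLEF1 and 7.01 and 6.03 in siNT (1.37, SE 0.31, adjusted p = 0.141). BSG, the chaperone of lactate transporters, read 9.24 and 9.22 in siLEF1 and 8.66 and 8.65 in siNT (0.58, adjusted p = 0.158).

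Mitochondrial genes were nearer 0. Of 12 genes of pyruvate entry, 4 lay above and 2 below the siNT range, with a median of 0.08 and 0 at an unadjusted p below 0.05. PDK2, another pyruvate dehydrogenase kinase, gave 0.33 (adjusted p = 0.554) and the dehydrogenase subunit PDHA1 gave 0.23 (adjusted p = 0.561). Of 15 genes of the citric acid cycle, 6 lay above and 3 below, with a median of 0.09, and 3 were higher at an unadjusted p below 0.05. SUCLG2, a succinyl-CoA ligase subunit, gave 0.64 (adjusted p = 0.216) and citrate synthase, CS, gave 0.43 (adjusted p = 0.278).

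Among 13 other HIF regulators, 3 lay below the siNT range, a share under the 26.4% of all genes, and 0 above it. These 3 were lower at an unadjusted p below 0.05, beside 11.5% of all genes. EPAS1 (HIF2A), a second oxygen-regulated subunit, read 7.22 and 7.06 in siLEF1 and 8.59 and 8.15 in siNT, with a log2 fold change of -1.23 (SE 0.19, adjusted p = 0.0829). CITED2, which competes with HIF1A for its coactivator, read 7.39 in both siLEF1 arrays and 8.27 and 8.80 in siNT, with a log2 fold change of -1.14 (adjusted p = 0.0958). Of 26 other hypoxia-induced genes, 9 lay below and 7 above the siNT range, with a median of -0.05, and 5 were lower and 4 higher at an unadjusted p below 0.05. MAFF, a small MAF factor that is also induced by stress, read 7.44 and 7.60 in siLEF1 and 9.11 and 10.85 in siNT. Its log2 fold change was -2.46 (SE 0.51, adjusted p = 0.120), with siNT replicates 1.74 log2 units apart. MXI1, a MYC antagonist, gave -0.89 (adjusted p = 0.150).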

How the data were processed

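RNA of Jurkat cells was labelled with the 3' IVT Express kit and hybridized to 4 HG-U133 Plus 2.0 arrays. The authors normalized the signals by RMA (Affymetrix Expression Console 1.1 in the submitters' processing notes), and the deposited values are log2 signals per probe set and array, with no filter. RMA makes the arrays' distributions equal, so a shift of all genes cannot be seen. NTC cells were not analysed here. No genome was needed beyond the RefSeq promoter table.

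Differences (siLEF1 minus siNT) were fitted by limma 3.58.1 under R 4.3.3, 2-sided, over 54613 probe sets, with Benjamini-Hochberg adjustment over all of these. The 62 Affymetrix controls did not enter. The paper's methods compare 3 groups, and here 2 were compared. Residual degrees of freedom were 2, and moderation contributed 4.30 more. The number of arrays, 2 a group, limits the precision. Symbols came from the platform annotation, updated by Entrez number (41037 of 41091 found). Of the probe sets, 41091 had 1 symbol, 1801 several and 11721 none. The model was tested on simulated data.

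The members and lists were chosen with earlier results of these data known. Named with full values are the 12 members with the smallest p and any whose replicates differ by over 1 log2 unit, and from each neighbouring list up to 2 genes with the smallest p. Alternatives were a filter at a mean signal of 6, trend and robust eBayes, an F test without moderation, the replicate block, other scalings, removal of _x_at and _s_at probe sets, 1 probe set or the mean of all per gene, other fold thresholds and each array left out.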

Additional observations from a re-analysis of the deposited data

How the results depend on the processing

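In all, 113 probe sets were called (100 lower, 13 higher). This count was 5 with the filter at a mean signal of 6, 0 by the F test without moderation (8538 had an unadjusted p below 0.05 in limma), 1097 with the replicate number as a block, 48 centred on housekeeping genes, 200 with 1 probe set per gene, and 0 to 1882 with each array left out. Among settings chosen after seeing the data, it was 52 centred on TBP and 1280 centred on PPIA. Same-numbered arrays correlated at -0.15 in their deviations from the group means, so the numbers were not taken as pairs. With them crossed as a block, also chosen after seeing the data, 922 probe sets and 1 member were called.

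Of the members, 0 were called as reported, 3 under the replicate block (SLC2A3, ANKRD37 and ADM), 3 centred on PPIA, 1 with 1 probe set per gene, 1 with the mean of all probe sets and 0 to 5 with each array left out. The 5 calls came without siNT replicate 1. The members' median log2 fold change of 0.19 was 0.32 on housekeeping genes, 0.49 on TBP, -0.042 on PPIA and 0.073 to 0.24 with each array left out. Without _x_at and _s_at probe sets, 15 members lay outside the siNT range, of 23 left, against 29 of 38, and no LEF1 probe set was left. For the 12 members with the smallest p, 186 alternative values were computed, and 17 of them newly passed the adjusted p, 169 stayed on the same side, and 0 changed sign. The causes were not tested. A change of sign was hardly possible in these 12 members. Several settings, such as the filter, the F test and the block, keep the log2 fold change. Their groups also did not overlap, so leaving out 1 array could not reverse a direction. Dim members such as EGLN3 and P4HA2 limit what could be read there.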
